A study of Mus musculus with 9 samples.

Results

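Hippocampal RNA of untreated MRL/lpr mice was compared with that of MRL/mpj mice, using 6 of the 9 sequencing libraries of the series: every library labelled as hippocampus of one of these 2 groups, with 3 libraries in each. The MRL/mpj group (strain MRL/MpJ) carries an intact Fas gene and served as the control. The MRL/lpr group (strain MRL/MpJ-Faslpr) carries the lpr mutation, an insertion in an intron of Fas that disturbs the making of the normal transcript, and was given no treatment. Both groups were 6 weeks old, and each library stands for 1 mouse. The mice were perfused and the hippocampus was taken from a single hemisphere, by the account of the authors. The deposited labels name C57BL/6 as the strain of all 9 libraries, whereas the series title and the study name the MRL strains used here. The remaining 3 libraries are labelled MRL/lpr+MSC, for MRL/lpr mice that received mesenchymal stem cells. They are called MSC-labelled below and enter only where the labels need a check.

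That check matters for every result. An expression table published with the paper has columns headed MRL/lpr. Each such column was, at 100% of the genes that could be compared, a constant multiple of an MSC-labelled library, with a tolerance of 0.001 on the ratio. Against any library labelled MRL/lpr the share at a constant multiple was at most 1.01%, whereas the columns headed MRL/mpj did follow the MRL/mpj libraries. The genes that the study names as changed nevertheless include Ccl8, Cd3g, Cd3e, Cd3d, Cd8a, Cd2 and Cd5, which passed here with the deposited labels and had too few counts to be tested in the MSC-labelled libraries. The study also reports more C1q in MRL/lpr brains by methods other than sequencing. The median of the complement list was 0.64 with the deposited labels and 0.10 with the MSC-labelled libraries, with no call in either. By staining of somewhat older mice, the study saw no immune cells entering the brain. The published table thus matches the MSC-labelled libraries, these genes run the way the deposited labels say, the staining does not show the T cells they stand for, and which naming is right was not settled here. The deposited labels were kept, and for the main results the value obtained with the MSC-labelled libraries in place of MRL/lpr is given as well. Both comparisons use the same 3 MRL/mpj libraries, so their values are set side by side and are not independent.

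Fas is a death receptor through which activated lymphocytes are removed, and mice that lack its function accumulate lymphocytes and develop an autoimmune disease that resembles lupus. The brain is among the organs this disease involves, and type I and type II interferons, antibodies and cytokines are the messengers most often named there. The hippocampus, which serves memory, is built of pyramidal neurons in fields CA1 to CA3, granule neurons in the dentate gyrus, scattered interneurons and several kinds of glia, and it borders on the choroid plexus and the ventricle wall.

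The matrix of counts held 20991419, 24114666 and 19475804 counts for the MRL/mpj libraries and 26912031, 22858589 and 22438063 for the MRL/lpr libraries. CPM below are counts scaled to a common library size after TMM, a trimmed mean of ratios between libraries. A count of 0 still allows up to 3 counts, which is 0.105 to 0.164 CPM in these 6 libraries and covers counting error only. Mitochondrial transcripts took 5.48%, 4.44% and 4.80% of the counts in MRL/mpj and 4.06%, 3.72% and 4.39% in MRL/lpr libraries. Markers of neurons and astrocytes were compared per length. In the deposited FPKM, which allow for gene length, the neuronal gene Snap25 had 307 ± 39.6 in the controls and 210.2 ± 36.4 in MRL/lpr (SD, n = 3 each). The astrocyte glutamate transporter Slc1a2 had 243 ± 9.01 and 219 ± 22.0 FPKM. Prox1, which marks dentate granule neurons, had 22.4 ± 4.23 and 20.4 ± 9.01 FPKM. Xist was present in all 6 libraries with a log2 fold change of 0.03.

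The comparison asks how the hippocampal transcriptome of MRL/lpr mice differs from that of their controls. Among T cell markers and interferon-induced antiviral genes the changes were rises, among markers of CA1 pyramidal neurons, clock genes driven through E-boxes and glucocorticoid-induced genes they were falls, and a set of pseudogenes and multicopy genes was present in one group and nearly absent in the other. Of 29355 genes with a count, 16697 had enough counts to be tested, which limma voom did. A gene is said to have risen or fallen when its adjusted p was under 0.05 and its change at least 1.5-fold. By this rule 967 genes, or 5.79% of those tested, differed, with 569 higher in MRL/lpr mice (3.41%) and 398 lower (2.38%). The groups overlapped in none of these 967 genes, but 38.0% of all genes tested did not overlap either, so separation alone is common. Over all genes tested the median log2 fold change was 0.02 and 52.8% were positive, and these values are the background against which the gene lists below are read.

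The genes that rose were scarcer than those that fell, with a median level of 5.00 CPM against 21.3, and they moved further, with a median log2 fold change of 1.43 against -0.91. At least a 16-fold change was seen in 70 genes that rose and 25 that fell, while 404 of the 967 changed by less than 2-fold. The count changed with each library left out. It was 265, 271 and 179 without MRL/mpj replicate 1, 2 and 3, and 407, 1631 and 1390 without MRL/lpr replicate 1, 2 and 3. In each of these 6 fits 155 of the 967 genes were called, of which 62 were higher and 93 lower. For many genes named below, the libraries whose removal loses the call are therefore named too. A fit with 1 library less also has less to measure spread with. A call lost without any 1 of the MRL/mpj libraries is thus not tied to a particular one of them. The MSC-labelled libraries in place of MRL/lpr gave 556 of 16196 genes, or 3.43%.

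The total count of Fas did not pass the threshold. Fas (ENSMUSG00000024778, chromosome 19, 34290666 to 34327772) had 1.99, 1.83 and 1.64 CPM in MRL/mpj and 2.28, 1.32 and 1.79 CPM in MRL/lpr libraries, a log2 fold change of -0.04 (SE 0.26, adjusted p = 0.936 by limma voom with Benjamini-Hochberg). With the MSC-labelled libraries the value was -0.51 (adjusted p = 0.332 by limma voom with Benjamini-Hochberg). The groups overlapped, and the gene stood near the low end of what can be tested in both. Counts per gene do not tell where along Fas the reads lie, so they give no view of the lpr insertion. Within 5 Mb on either side of Fas, 64 genes were tested and 3 differed, Lipa, Ifit1 and Kif11, which makes the neighbourhood of the mutation no denser in changed genes than the rest of the genome. Lipa, which encodes a lysosomal acid lipase and is named here after its values were seen, had 17.5, 21.7 and 19.8 CPM in MRL/mpj and 34.5, 39.3 and 36.9 CPM in MRL/lpr libraries, a log2 fold change of 0.90 (SE 0.11, adjusted p = 0.00770 by limma voom with Benjamini-Hochberg). Among 11 tested genes of death receptor signalling the median was 0.52 and the 1 that rose was Tnfrsf1b, a receptor for tumour necrosis factor. Its log2 fold change was 1.05. Of these genes, Lipa kept the call with any 1 library left out, and Tnfrsf1b lost it without any 1 of the MRL/mpj libraries or MRL/lpr replicate 1 or 2, with an adjusted p of up to 0.154 there (limma voom with Benjamini-Hochberg).

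Several genes had far lower levels in one group than in the other. Gm14287 (ENSMUSG00000082329, chromosome 2, 157528869 to 157528985), a processed pseudogene, had 0.0995, 0.128 and 0.109 CPM in MRL/mpj and 22.9, 23.7 and 22.2 CPM in MRL/lpr libraries. The MRL/mpj libraries were nearly without reads of it, and the groups were far apart, with a log2 fold change of 7.39 (SE 0.32, adjusted p = 2.85e-04 by limma voom with Benjamini-Hochberg). Gm14305 (ENSMUSG00000078878, chromosome 2, 176708328 to 176721813) and Gm14295, zinc finger genes that lie side by side at the far end of chromosome 2, behaved alike. Gm14305 had 0.298, 0.256 and 0.437 CPM in MRL/mpj and 12.8, 11.6 and 14.8 CPM in MRL/lpr libraries. Gm14295 had 0.0497, 0.0427 and 0.164 CPM in MRL/mpj and 8.75, 7.78 and 8.86 CPM in MRL/lpr libraries. The log2 fold changes were 5.24 and 6.45, with SEs of 0.33 and 0.42. In the opposite direction, Gm4737 (ENSMUSG00000048087, chromosome 16, 46152985 to 46155077) had 13.5, 11.7 and 14.7 CPM in MRL/mpj and 0.141, 0.0851 and 0.213 CPM in MRL/lpr libraries, a log2 fold change of -6.38 (SE 0.39, adjusted p = 8.23e-04 by limma voom with Benjamini-Hochberg). Cwc22 (ENSMUSG00000027014, chromosome 2, 77881159 to 77946375), which encodes a splicing factor, had 214, 132 and 248 CPM in MRL/mpj and 18.0, 17.8 and 17.6 CPM in MRL/lpr libraries, a log2 fold change of -3.43 (SE 0.26, adjusted p = 0.00239 by limma voom with Benjamini-Hochberg). Here the 3 MRL/lpr libraries lay within 1 CPM of each other and MRL/mpj replicate 2 stood below the other controls. All 5 genes kept their call with any 1 library left out. The MSC-labelled libraries took the side of MRL/lpr in each of them, with 30.5, 23.1 and 24.0 CPM for Gm14287, 0.262, 0.324 and 0.223 CPM for Gm4737 and 17.2, 19.5 and 18.7 CPM for Cwc22.

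Several of these genes have near-identical copies elsewhere in the genome, and reads could be split between copies in the counting, which makes their values uncertain. The copies can be followed in pairs, which were chosen after their values were seen. Rps2-ps13 (ENSMUSG00000081684, chromosome X, 52898588 to 52899469) is a pseudogene of Rps2, a protein of the small ribosomal subunit, and had 344, 311 and 343 CPM in MRL/mpj and 0.913, 0.808 and 0.810 CPM in MRL/lpr libraries. Rps2-ps10, another copy, had 2.44, 1.49 and 2.02 CPM in MRL/mpj and 122.6, 125 and 115 CPM in MRL/lpr libraries. The parent gene Rps2 had 143, 130.5 and 142 CPM in MRL/mpj and 80.4, 87.4 and 79.6 CPM in MRL/lpr libraries. One pseudogene was thus far lower in MRL/lpr mice, the other far higher, and the functional gene was lower, with a log2 fold change of -0.75. Rpl14 and its pseudogene Rpl14-ps1 repeated the pattern. Rpl14 had 272, 249 and 238 CPM in MRL/mpj and 148, 142 and 157 CPM in MRL/lpr libraries. Rpl14-ps1 had 3.38, 3.03 and 3.01 CPM in MRL/mpj and 105, 102 and 109.6 CPM in MRL/lpr libraries. The parent fell with a log2 fold change of -0.76, and the copy rose with one of 5.06. A protein-coding pair showed it as well: Hmga1b (ENSMUSG00000078249, chromosome 11, 120762794 to 120764419), a chromatin protein, had 0.547, 0.512 and 0.219 CPM in MRL/mpj and 17.7, 15.6 and 23.1 CPM in MRL/lpr libraries, and its relative Hmga1 fell with a log2 fold change of -0.97 from 32.2 ± 2.08 to 16.5 ± 3.32 CPM (SD, n = 3 each). Among these genes, Rps2-ps13, Rps2-ps10, Rps2, Rpl14, Rpl14-ps1 and Hmga1b kept the call with any 1 library left out, and Hmga1 lost it without any 1 of the MRL/mpj libraries, with an adjusted p of up to 0.0717 there (limma voom with Benjamini-Hochberg).

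The share of changed genes differed by class of gene, which was not tested. Of 452 tested pseudogenes 60 differed, or 13.3%, with 32 higher and 28 lower, and 23 of them by at least 16-fold. Using the MSC-labelled libraries, 52 of the same 452 were past the threshold. How many of those were among the 60 was not counted. Protein-coding genes stood at 5.51% (811 of 14724) and long non-coding RNAs at 5.85% (82 of 1401). Of 22 tested immunoglobulin and T cell receptor segments, the gene pieces that lymphocytes join into their receptors, 9 rose, or 40.9%. Segments nearly absent from MRL/mpj mice could pass the count filter only through the MRL/lpr libraries. This share is therefore partly set by the filter and is not ranked against the other classes. None of those 9 had enough counts to be tested in the MSC-labelled libraries.

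Along the genome, the share of changed genes was highest in a few short stretches. Of 450 windows of 5 Mb with at least 10 tested genes, 96 held no changed gene, the median share was 5.26% and 18 windows reached 20%. The highest, 34.8%, was the stretch from 5 to 10 Mb on chromosome 14, where 8 of 23 genes differed. Those 8, Gm8281, Gm3248, Gm8206, Gm3468, Gm3411, Gm3636, Gm3667 and Gm6356, belong to a cluster of near-identical copies. Gm3636 (ENSMUSG00000091754, chromosome 14, 6735685 to 6742332) had no count in the MRL/mpj libraries and 3.27, 2.93 and 4.22 CPM in the MRL/lpr libraries and was at least 21.2-fold higher. Gm6356 had 8.65, 4.05 and 1.80 CPM in the MRL/mpj libraries and no count in the MRL/lpr libraries and was at least 37.8-fold lower, so neighbours of this cluster moved in opposite directions. Gm3636 kept the call with any 1 library left out, and Gm6356 lost it without MRL/mpj replicate 2 or MRL/lpr replicate 1, with an adjusted p of up to 0.0777 there (limma voom with Benjamini-Hochberg). The window from 175 to 180 Mb on chromosome 2 held 8 changed genes of 27 (29.6%), in the cluster around Gm14305. Windows without such copies were high as well. From 55 to 60 Mb on chromosome 2, 5 of 15 genes differed (33.3%), among them the potassium channel gene Kcnj3 and Nr4a2, and from 50 to 55 Mb on chromosome 15, 4 of 13 did (30.8%), namely Gm10020, Ext1, Mal2 and Ccn3. By chromosome, the autosomes ranged from 3.54% on chromosome 19, which carries Fas, to 8.48% on chromosome 14.

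**Figure D1:**
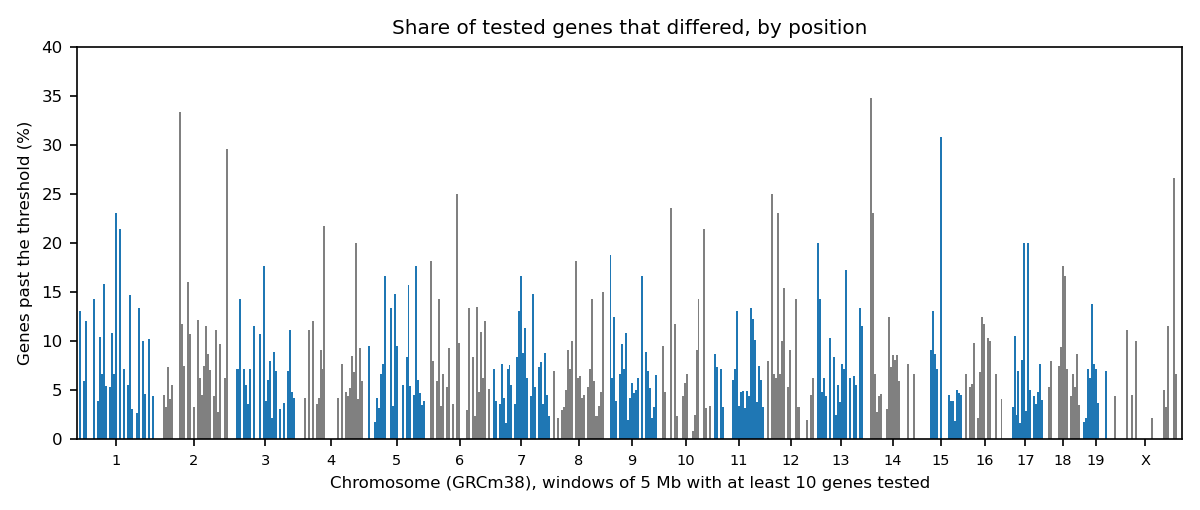
Share of tested genes past the threshold in windows of 5 Mb with at least 10 tested genes, in percent, along the chromosomes of GRCm38 (1 bar per window; colours alternate by chromosome). Tall bars stand alone: 18 of 450 windows reach 20%, and the tallest, on chromosome 14, is at 34.8%.

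Among protein-coding genes, Ccl8 had the largest fitted rise. Ccl8 (ENSMUSG00000009185, chromosome 11, 82115185 to 82116799), a chemokine that attracts monocytes and T cells, had no count in the MRL/mpj libraries and 11.03, 6.00 and 1.92 CPM in the MRL/lpr libraries and was at least 38.5-fold higher. The chaperone of MHC class II molecules Cd74 (ENSMUSG00000024610, chromosome 18, 60803848 to 60812652) had 3.13, 2.82 and 1.04 CPM in MRL/mpj and 161, 112 and 46.4 CPM in MRL/lpr libraries, a log2 fold change of 5.44 (SE 1.12, adjusted p = 0.0358 by limma voom with Benjamini-Hochberg). Each MRL/lpr library was above each control, and within the MRL/lpr group replicate 1 was highest and replicate 3 lowest for both genes. Rec8, a cohesin subunit of meiosis, had a log2 fold change of 6.02. Samd3, named for its SAM domain, had 0.149, 0.0853 and 0.164 CPM in MRL/mpj and 6.99, 5.06 and 5.62 CPM in MRL/lpr libraries (log2 fold change 5.30). Slc26a9, an anion transporter, had 0.0497, 0 and 0.109 CPM in MRL/mpj and 2.21, 2.93 and 0.852 CPM in MRL/lpr libraries, a ratio of 41.5 with a counting interval from 13.9 to 204. D830030K20Rik, on chromosome 14, had a ratio of 125 (22.0 to 4952), and A730046J19Rik, on chromosome X, one of 134 (23.6 to 5308). Gbp10, a near-identical relative of other guanylate-binding proteins, had 0.149, 0 and 0.0547 CPM in MRL/mpj and 6.53, 1.66 and 1.36 CPM in MRL/lpr libraries, with MRL/lpr replicate 1 apart from the rest. Samd3 and D830030K20Rik kept the call with any 1 library left out, Rec8 lost it without MRL/mpj replicate 3, Ccl8 lost it without any 1 of the MRL/mpj libraries, Cd74, Slc26a9 and A730046J19Rik lost it without any 1 of the MRL/mpj libraries or MRL/lpr replicate 1, and Gbp10 lost it without any 1 of the MRL/mpj libraries or MRL/lpr replicate 2 or 3, with an adjusted p of up to 0.170 there (limma voom with Benjamini-Hochberg). The MSC-labelled libraries differed between these genes: they had 2.73, 19.01 and 22.1 CPM for Cd74 and 0.157, 0.416 and 0.623 CPM for Ccl8, but 2.05, 4.44 and 6.81 CPM for Rec8 and 4.25, 2.08 and 1.51 CPM for Slc26a9. For Samd3 they had 0.0524, 4.49 and 6.10 CPM, with the first library alone near the controls.

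The largest falls among protein-coding genes came mostly from genes at low levels. Cyp11a1 (ENSMUSG00000032323, chromosome 9, 58006411 to 58027023), which starts the making of steroids from cholesterol, had 2.19, 2.43 and 2.13 CPM in MRL/mpj and 0.0703, 0.255 and 0.0852 CPM in MRL/lpr libraries, a log2 fold change of -4.08 (SE 0.44, adjusted p = 0.00603 by limma voom with Benjamini-Hochberg). Lrat, which esterifies retinol for storage, had a log2 fold change of -3.99. Mcmdc2, a gene of meiotic recombination, fell with a log2 fold change of -4.13, and Eif3j2, a copy of a translation initiation factor gene, with one of -3.80. Lgr6, a receptor for R-spondins in Wnt signalling, had 28.6, 27.6 and 19.3 CPM in MRL/mpj and 3.79, 3.79 and 2.98 CPM in MRL/lpr libraries and fell with a log2 fold change of -2.83. Baiap2l1, which bends membranes at actin filaments, fell with a log2 fold change of -3.43. Gm47283, annotated on chromosome Y, fell with one of -2.83. Cyp11a1, Lrat, Eif3j2 and Lgr6 kept the call with any 1 library left out, Mcmdc2 lost it without MRL/mpj replicate 3, Gm47283 lost it without MRL/mpj replicate 1 or MRL/lpr replicate 1, and Baiap2l1 lost it without any 1 of the MRL/mpj libraries or MRL/lpr replicate 1 or 3, with an adjusted p of up to 0.133 there (limma voom with Benjamini-Hochberg). Among non-coding genes, the small nucleolar RNA gene Gm24598 had a ratio of 797 in favour of MRL/mpj (143 to 31522), the histone pseudogene Hist1h2al one of 151 (26.7 to 6024), and the long RNA Gm42743 was at least 40.2-fold lower, and these 3 calls were kept with any 1 library left out.

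Well-expressed genes with the smallest p-values changed by less but more evenly. Isca1 (ENSMUSG00000044792, chromosome 13, 59755409 to 59769810), which helps to assemble iron-sulfur clusters in mitochondria, had 160.3, 153 and 164 CPM in MRL/mpj and 57.4, 56.0 and 62.9 CPM in MRL/lpr libraries, a log2 fold change of -1.44 (SE 0.07, adjusted p = 3.12e-04 by limma voom with Benjamini-Hochberg). The ranges of the 2 groups were far apart compared with the spread inside each. Ccn3 (ENSMUSG00000037362, chromosome 15, 54745702 to 54754039), a secreted matrix protein also known as Nov, had 64.5, 56.8 and 52.3 CPM in MRL/mpj and 19.9, 20.1 and 17.3 CPM in MRL/lpr libraries (log2 fold change -1.59). Serpini1, the protease inhibitor neuroserpin, had a log2 fold change of -0.99. Wbp11, a splicing protein, fell with a log2 fold change of -1.02. Zfp36l2, which marks messenger RNAs for decay, had 20.4, 20.8 and 20.2 CPM in MRL/mpj and 41.2, 39.7 and 40.5 CPM in MRL/lpr libraries, a doubling seen in each library. P3h4, a protein of collagen modification, rose with a log2 fold change of 1.19, and Vwa5a with one of 1.66. All 7 calls were kept with any 1 library left out. The MSC-labelled libraries gave -1.36 for Isca1 and 0.89 for Zfp36l2 against the same controls, but only -0.39 for Ccn3 and -0.42 for Serpini1. For Ccn3 those libraries had 71.4, 52.5 and 24.0 CPM, which spans both groups.

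**Figure D2:**
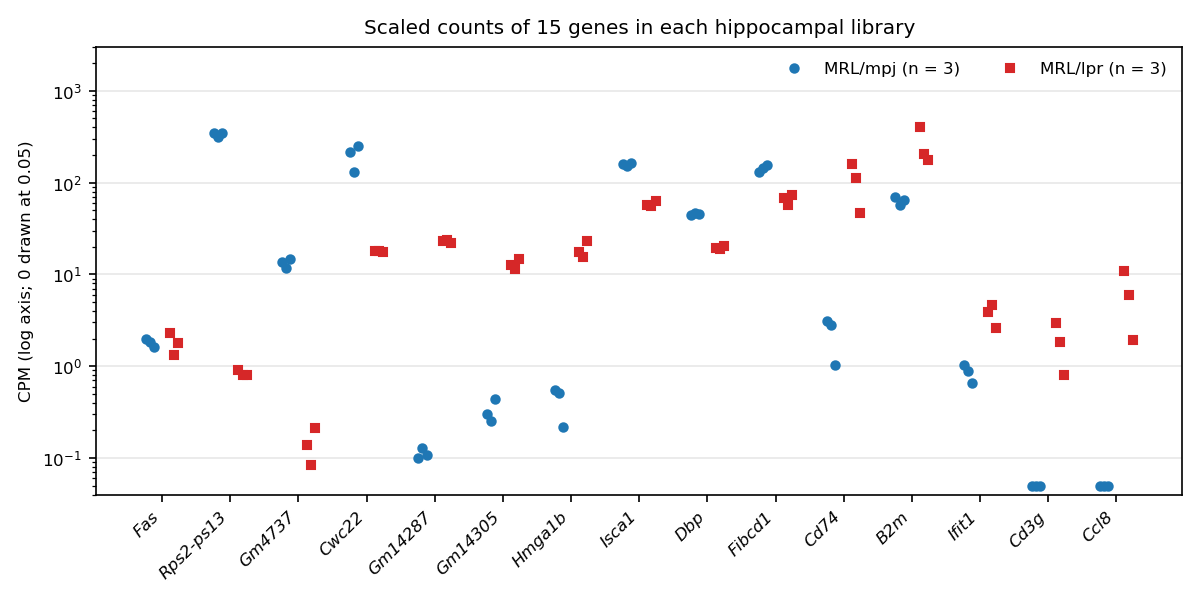
CPM (log axis) of 15 genes in each MRL/mpj library (circles) and each MRL/lpr library (squares), n = 3 each, with a count of 0 drawn at 0.05. Fas overlaps between the groups, the multicopy genes Rps2-ps13, Gm4737, Cwc22, Gm14287, Gm14305 and Hmga1b lie far apart between the groups, and the immune genes Cd74, B2m, Ifit1, Cd3g and Ccl8 are higher in each MRL/lpr library than in each control.

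Cell types were read from 24 lists of marker genes. In bulk tissue, fewer cells of a type and less RNA per cell cannot be told apart, and this holds for each list that follows. Markers of neurons of all classes had all 10 genes negative and a median of -0.28, but limma voom called 0 of them and 5 had an unadjusted p under 0.05. Snap25, the most abundant of them, had 2046, 1830.0 and 2359.8 CPM in MRL/mpj and 1361, 1702 and 1246 CPM in MRL/lpr libraries (log2 fold change -0.54). The largest difference among neurons was in CA1, the field whose pyramidal neurons carry the hippocampal output. Of 6 CA1 markers 4 fell, against 2.38% of all genes, and the median was -1.17. Fibcd1 (ENSMUSG00000026841, chromosome 2, 31813290 to 31846005) had 129, 146 and 154 CPM in MRL/mpj and 68.6, 57.1 and 73.2 CPM in MRL/lpr libraries, a log2 fold change of -1.11 (SE 0.11, adjusted p = 0.00370 by limma voom with Benjamini-Hochberg). Mpped1 had a log2 fold change of -1.27, and the transcription factor gene Pou3f1 had a log2 fold change of -1.22. In these 3 the groups were apart and MRL/lpr replicate 2 was the lowest library. Fibcd1 kept the call with any 1 library left out, and Mpped1 and Pou3f1 lost it without any 1 of the MRL/mpj libraries, with an adjusted p of up to 0.0876 there (limma voom with Benjamini-Hochberg). Wfs1, the most abundant marker of the list, had 194, 296 and 239 CPM in MRL/mpj and 215, 78.0 and 213 CPM in MRL/lpr libraries, so only that replicate was below the controls. From the MSC-labelled libraries, 1 of the 6 fell, Fibcd1, and the median was -0.48.

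With all 6 libraries the neighbouring fields gave no call. None of 11 markers of CA2 and CA3 passed limma voom's threshold and 3 had an unadjusted p under 0.05, with a median of -0.23. With 1 library left out this median ran from -0.35 to 0.09, and without MRL/lpr replicate 2 limma voom called 3 of them. Among 8 markers of dentate granule neurons 0 were called by limma voom and 0 had an unadjusted p under 0.05, with a median of -0.20. Without MRL/lpr replicate 2 limma voom called 1 dentate marker. All 8 dentate markers were negative, yet the MRL/lpr libraries lay on both sides of the controls, with medians of -0.45, 0.42 and -0.64 on the log2 scale relative to the MRL/mpj mean. The difference between CA1 and the other fields was not tested.

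Interneurons, the inhibitory cells, showed a split between their markers. The neuropeptide genes Vip and Npy and the calcium-binding protein gene Pvalb, each of which marks a subclass, were the 3 of 14 that fell. Of the list 7 members were positive and 7 negative, with a median of -0.15 and a highest value of 3.23. Vip had 13.6, 13.8 and 15.0 CPM in MRL/mpj and 6.82, 6.29 and 5.33 CPM in MRL/lpr libraries (log2 fold change -1.19). Pvalb had 42.1, 45.4 and 51.3 CPM in MRL/mpj and 22.9, 23.2 and 23.8 CPM in MRL/lpr libraries, a log2 fold change of -0.98 (SE 0.09, adjusted p = 0.00339 by limma voom with Benjamini-Hochberg). Npy fell with a log2 fold change of -0.72. All 3 were lower in each MRL/lpr library than in each control. Vip and Pvalb kept the call with any 1 library left out, and Npy lost it without MRL/mpj replicate 2 or 3 or MRL/lpr replicate 1, with an adjusted p of up to 0.108 there (limma voom with Benjamini-Hochberg). The genes that all interneurons share did not follow. Gad1, which makes the transmitter GABA, had 259.8, 268 and 268 CPM in MRL/mpj and 304, 199.9 and 602 CPM in MRL/lpr libraries. Here MRL/lpr replicate 3 stood far above every other library and replicate 2 below all controls. The MSC-labelled libraries had -0.59 for Pvalb and -0.41 for Vip, not past the threshold.

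Markers of other brain regions and of the ventricle differed between the MRL/lpr libraries themselves. The summed level of the thalamic markers was 197, 145 and 178 CPM in MRL/mpj and 421, 211 and 599.5 CPM in MRL/lpr libraries. Of 8 thalamic markers limma voom called 0 and 5 had an unadjusted p under 0.05 (median 0.46), and the highest of them, Zic1, had 30.4, 21.1 and 15.0 CPM in MRL/mpj and 207, 61.6 and 352 CPM in MRL/lpr libraries. Of 12 striatal markers 1 rose, Rgs9, which turns off dopamine receptor signals, with 0.96 (median of the list 0.42). Zic1 thus had its highest value in MRL/lpr replicate 3, the library with the highest Gad1. Of 9 cortical markers Nxph4 rose and Fezf2 fell (log2 fold changes 1.47 and -0.83, median -0.13). Fezf2 lost the call without MRL/mpj replicate 2 or 3, Rgs9 lost it without MRL/mpj replicate 2 or 3 or MRL/lpr replicate 1, and Nxph4 lost it without any 1 of the MRL/mpj libraries or MRL/lpr replicate 1 or 2, with an adjusted p of up to 0.156 there (limma voom with Benjamini-Hochberg). Choroid plexus epithelium, which makes the cerebrospinal fluid, had a median of 1.78 over 11 genes, all positive, yet limma voom called 0 of them and 2 had an unadjusted p under 0.05. Its most abundant gene Ttr, which carries thyroid hormone, had 122, 442 and 626 CPM in MRL/mpj and 934, 8761 and 51.3 CPM in MRL/lpr libraries. The summed level of the list was 176, 537 and 731 CPM in the MRL/mpj and 1129, 9819.7 and 141 CPM in the MRL/lpr libraries, so 1 library carried most of it and another lay below all controls. Without MRL/lpr replicate 2 the median of the list was 0.34. The part that differences in dissected tissue play in the results was not tested.

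Ependymal cells line the ventricle and bear cilia. All 7 tested markers were positive, with a median of 1.81 and summed levels of 23.2, 24.9 and 26.6 CPM against 182, 76.2 and 63.8 CPM. Foxj1, the regulator of motile cilia and the most abundant member, had 6.17, 8.45 and 8.91 CPM in MRL/mpj and 58.9, 28.8 and 20.7 CPM in MRL/lpr libraries. The groups do not overlap, but its log2 fold change of 2.10 missed the threshold with an adjusted p of 0.0611 (limma voom with Benjamini-Hochberg adjustment). Rsph1, a part of the ciliary spoke, was the 1 that rose, from 7.82 ± 0.961 to 23.8 ± 8.69 CPM (SD, n = 3 each). Rsph1 lost the call without any 1 of the MRL/mpj libraries or MRL/lpr replicate 1 or 2, with an adjusted p of up to 0.147 there (limma voom with Benjamini-Hochberg). The MSC-labelled libraries had a median of 1.20 and no call.

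Among immature and dividing cells, all 11 tested markers were positive (median 0.70) and Sox11, a transcription factor gene of newborn neurons, rose. It had 17.4, 24.4 and 18.3 CPM in MRL/mpj and 35.1, 34.3 and 46.7 CPM in MRL/lpr libraries, a log2 fold change of 0.94 (SE 0.18, adjusted p = 0.0269 by limma voom with Benjamini-Hochberg). The groups did not overlap. Astrocyte markers had a median of 0.05 over 11 genes, and Gfap, the filament protein that marks reactive astrocytes, had 526, 644 and 462 CPM in MRL/mpj and 753, 491 and 469 CPM in MRL/lpr libraries. The exception was Sox9 (ENSMUSG00000000567, chromosome 11, 112782224 to 112787760), a transcription factor of astrocytes and neural stem cells, which had 18.95, 25.3 and 19.5 CPM in MRL/mpj and 63.2, 43.0 and 52.9 CPM in MRL/lpr libraries, a log2 fold change of 1.30 (SE 0.18, adjusted p = 0.0129 by limma voom with Benjamini-Hochberg). Sox9 lost the call without MRL/mpj replicate 1 or 3, and Sox11 lost it without any 1 of the MRL/mpj libraries or MRL/lpr replicate 1, with an adjusted p of up to 0.118 there (limma voom with Benjamini-Hochberg). For the MSC-labelled libraries the values were 1.09 for Sox9, past the threshold, and 0.36 for Sox11, not past it.

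The oligodendrocyte lineage and the vessel wall gave few calls. Among 13 markers of mature oligodendrocytes limma voom called 0, with 1 at an unadjusted p under 0.05 and a median of -0.20. Mbp, the main protein of compact myelin, had 3689, 3498 and 4033 CPM in MRL/mpj and 4876, 2572 and 3202 CPM in MRL/lpr libraries, so the MRL/lpr libraries spanned the controls. Among 10 markers of oligodendrocyte precursors limma voom called 0, 0 had an unadjusted p under 0.05 and the median was 0.18. Of 12 endothelial markers 1 rose, Cldn5, the main claudin of the blood-brain barrier. Cldn5 (ENSMUSG00000041378, chromosome 16, 18776847 to 18778262) had 34.5, 34.4 and 31.1 CPM in MRL/mpj and 56.2, 50.2 and 60.0 CPM in MRL/lpr libraries, a log2 fold change of 0.73 (SE 0.09, adjusted p = 0.00830 by limma voom with Benjamini-Hochberg), while Pecam1 and Flt1, which mark all endothelium, had log2 fold changes of 0.16 and 0.10. Of 8 markers of pericytes and smooth muscle limma voom called 0 and 4 had an unadjusted p under 0.05 (median -0.07). For 10 markers of meningeal fibroblasts the numbers were 0 and 0 (median 0.48). Of 16 genes for junctions and transporters of the barrier, Cldn5 rose and Slc7a5, the carrier of large neutral amino acids, fell. The log2 fold change of Slc7a5 was -0.79. Slc7a5 kept the call with any 1 library left out, and Cldn5 lost it without MRL/mpj replicate 3, with an adjusted p of up to 0.0523 there (limma voom with Benjamini-Hochberg).

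Microglia, the resident macrophages of the brain, had 1 of 14 homeostatic markers lower and 9 negative, with a median of -0.12. Fcrls (ENSMUSG00000015852, chromosome 3, 87250758 to 87263738), a scavenger receptor found on homeostatic microglia, had 18.7, 27.9 and 15.2 CPM in MRL/mpj and 5.27, 8.08 and 6.99 CPM in MRL/lpr libraries, a log2 fold change of -1.62 (SE 0.30, adjusted p = 0.0270 by limma voom with Benjamini-Hochberg). P2ry12, through which microglia sense nucleotides, had 56.6, 52.8 and 54.5 CPM in MRL/mpj and 40.8, 35.1 and 34.1 CPM in MRL/lpr libraries, and with a log2 fold change of -0.57 (adjusted p = 0.0151 by limma voom with Benjamini-Hochberg) it fell just short of 1.5-fold. Of 14 tested genes of disease-associated microglia 2 rose, Spp1 and the receptor gene Clec7a. Spp1, or osteopontin, had 1.89, 0.939 and 1.64 CPM in MRL/mpj and 6.01, 12.04 and 7.41 CPM in MRL/lpr libraries (log2 fold change 2.48). Trem2 and Tyrobp, the receptor pair on which that microglial state depends, had log2 fold changes of 0.26 and 0.08. Of 8 markers of perivascular macrophages Clec10a rose, with 1.23, while Mrc1, the most abundant, had a log2 fold change of 0.26. Fcrls lost the call without MRL/mpj replicate 1 or 3 or MRL/lpr replicate 1, Spp1 lost it without any 1 of the MRL/mpj libraries, Clec7a lost it without any 1 of the MRL/mpj libraries or MRL/lpr replicate 1, and Clec10a lost it without any 1 of the MRL/mpj libraries or MRL/lpr replicate 1 or 2, with an adjusted p of up to 0.156 there (limma voom with Benjamini-Hochberg). Against these controls, in the MSC-labelled libraries the values were -1.58 for Fcrls, past the threshold, 1.90 for Spp1, not past it, and -0.16 for Clec10a, a change of sign.

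T cells gave more calls than any other cell type list. Of 14 tested T cell genes 8 rose, against 3.41% of all genes, all 14 were positive, and the median was 4.31, or 3.70 with genes absent from MRL/mpj mice set to their lower bound. Members nearly absent from MRL/mpj mice, such as Cd3g and Cd3e, could pass the count filter only through the MRL/lpr libraries. The count, the signs and the median are therefore partly set by that filter. Cd3g (ENSMUSG00000002033, chromosome 9, 44969572 to 44980431), a chain of the T cell receptor complex, had no count in the MRL/mpj libraries and 2.95, 1.83 and 0.810 CPM in the MRL/lpr libraries and was at least 11.4-fold higher. Cd3e had 0.0995, 0 and 0.0547 CPM in MRL/mpj and 2.39, 1.57 and 0.724 CPM in MRL/lpr libraries. Both transcripts were thus at the counting limit in every control and present in every MRL/lpr library, most in replicate 1 and least in replicate 3. The other calls were Cd2, Cd3d, Cd5, Cd8a, Nkg7 and Trbc1, the constant segment of a receptor chain. Lck, the most abundant of the list, had 1.84, 1.37 and 1.64 CPM in MRL/mpj and 5.23, 3.57 and 2.51 CPM in MRL/lpr libraries and did not pass. The summed level of the list was 3.93, 3.46 and 3.23 CPM in MRL/mpj and 37.9, 23.9 and 11.8 CPM in MRL/lpr libraries. The number of calls was 0 without any 1 of the MRL/mpj libraries, 4 without MRL/lpr replicate 1, 8 without MRL/lpr replicate 2 and 13 without MRL/lpr replicate 3. The MSC-labelled libraries had summed levels of 4.46, 5.597 and 7.93 CPM, and only 2 of the 14 genes were high enough to be tested there, none past the threshold.

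B cells and plasma cells followed. Of 8 tested genes 2 rose, against 3.41% of all genes, among them Cd79a, a part of the B cell receptor complex. All 8 were positive and the median was 2.83. Members scarce in MRL/mpj mice, such as Cd79a, could pass the count filter only through the MRL/lpr libraries. The count, the signs and the median are therefore partly set by that filter here too. Cd79a had 0.696, 0.171 and 0.164 CPM in MRL/mpj and 2.39, 1.53 and 1.19 CPM in MRL/lpr libraries (log2 fold change 2.51). The constant segment of the kappa light chain, Igkc, was the most abundant at 1.59, 0.384 and 0.711 CPM in MRL/mpj and 345, 94.8 and 52.2 CPM in MRL/lpr libraries. Its groups were far apart, yet its log2 fold change of 7.28 did not pass the threshold (adjusted p = 0.0855 by limma voom with Benjamini-Hochberg). Ighg2c, the constant segment of an antibody class that interferon-gamma favours, had 0.448, 0 and 0.0547 CPM in MRL/mpj and 23.3, 8.38 and 7.76 CPM in MRL/lpr libraries and rose with a log2 fold change of 6.99. Igkv10-94 and Igkv12-46, variable segments of light chains, had no read in the controls, and Igkv10-94 was at least 27.4-fold higher. Reads of such segments can match several of them, which makes single values uncertain. Cd79a and Igkv10-94 lost the call without any 1 of the MRL/mpj libraries or MRL/lpr replicate 1, and Ighg2c and Igkv12-46 lost it without any 1 of the MRL/mpj libraries or MRL/lpr replicate 3, with an adjusted p of up to 0.162 there (limma voom with Benjamini-Hochberg). The MSC-labelled libraries gave a list median of 0.43, with 5 genes tested, 1 past the threshold and summed levels of 28.5, 63.0 and 42.5 CPM, where MRL/mpj had 26.5, 9.64 and 9.46 CPM and MRL/lpr 489, 151 and 86.8 CPM. Of 7 tested genes of neutrophils and monocytes limma voom called 0 and 2 had an unadjusted p under 0.05 (median 1.18). With 1 library left out the median of these genes ran from -0.16 to 1.90, so its sign depends on single libraries.

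Red blood cell genes did not rise. Among 4 tested genes of red blood cells the median was -0.23, and with 1 library left out it ran from -0.52 to 0.27. The alpha globin gene Hba-a1, the most abundant, had 85.8, 31.6 and 29.7 CPM in MRL/mpj and 28.6, 32.1 and 53.2 CPM in MRL/lpr libraries. Its groups overlapped. The 1 member that fell was Hbb-bt, a beta globin gene with a near-identical neighbour, with 4.33, 2.90 and 4.37 CPM in MRL/mpj and 0.316, 0.298 and 0.852 CPM in MRL/lpr libraries. Hbb-bt lost the call without MRL/mpj replicate 1 or 3 or MRL/lpr replicate 1, with an adjusted p of up to 0.0578 there (limma voom with Benjamini-Hochberg).

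**Figure D3:**
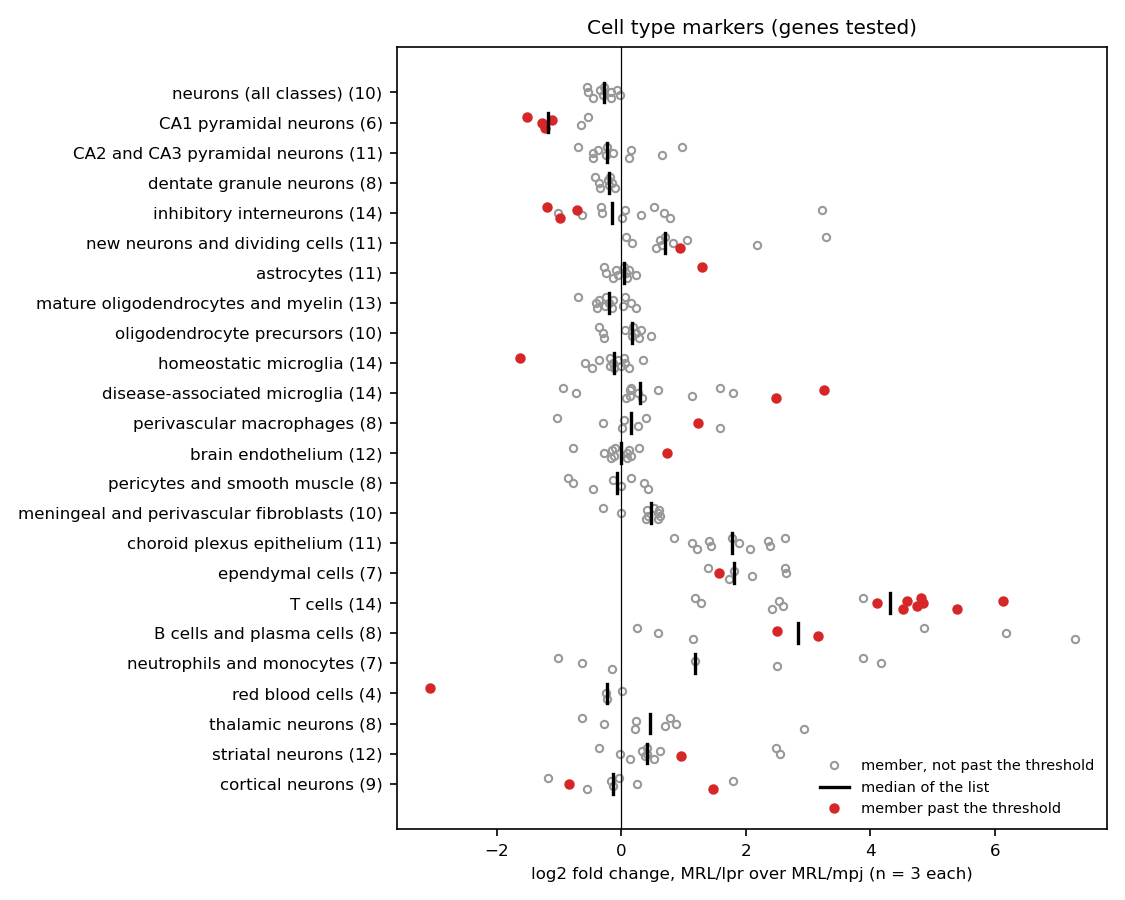
Log2 fold change of MRL/lpr over MRL/mpj (n = 3 each) for each tested member of 24 cell type marker lists, with red points past the threshold, open points not past it, and a bar at the median. The T cell list lies far to the right (median 4.31, 8 of 14 past the threshold) and the CA1 list to the left (median -1.17, 4 of 6), while most glial and vascular lists sit around 0.

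Interferons act through receptors and STAT and IRF factors on genes that hold interferon response elements, and among their targets are antiviral proteins, GTPases that attack intracellular microbes, and the machinery of antigen presentation. All 22 tested antiviral genes were positive, with a median of 1.73, and 10 rose, against 3.41% of all genes. Members nearly absent from MRL/mpj mice, such as Zbp1, could pass the count filter only through the MRL/lpr libraries, so these values are partly set by it. Zbp1, a sensor of left-handed nucleic acid, had 0, 0.171 and 0.164 CPM in MRL/mpj and 3.76, 1.83 and 1.07 CPM in MRL/lpr libraries (log2 fold change 4.38). Ifit1 (ENSMUSG00000034459, chromosome 19, 34640871 to 34650009), which binds foreign RNA caps, had 1.04, 0.896 and 0.656 CPM in MRL/mpj and 3.93, 4.59 and 2.60 CPM in MRL/lpr libraries, a log2 fold change of 2.05 (SE 0.35, adjusted p = 0.0218 by limma voom with Benjamini-Hochberg). Neither overlapped between groups, and both stood at a few CPM or less. Cmpk2, a mitochondrial nucleotide kinase and the most abundant member, had a log2 fold change of 0.80. Usp18, Isg15, Rtp4, Parp14, Oas1a, Oas2 and Ifi44 made up the rest. Other members of the Ifit family did not pass, with log2 fold changes of 0.53 for Ifit2 and 0.07 for Ifit3. The number of calls was 1 without MRL/mpj replicate 1 or 2 or MRL/lpr replicate 1, 0 without MRL/mpj replicate 3, 8 without MRL/lpr replicate 2 and 19 without MRL/lpr replicate 3. In the MSC-labelled libraries 6 of 20 rose and the median was 0.95.

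The GTPases that interferon-gamma induces stood higher still. All 14 tested were positive and apart between the groups, against 38.0% of all genes apart. Of them 5 rose, against 3.41% of all genes, and the median was 3.54. Members nearly absent from MRL/mpj mice, such as Gbp6, could pass the count filter only through the MRL/lpr libraries. The signs, the separation and the median are therefore partly set by that filter. Gbp6, a guanylate-binding protein, had 0.199, 0.0853 and 0.383 CPM in MRL/mpj and 10.5, 5.61 and 2.90 CPM in MRL/lpr libraries, a log2 fold change of 4.79 (SE 1.06, adjusted p = 0.0427 by limma voom with Benjamini-Hochberg). Gbp3 (ENSMUSG00000028268, chromosome 3, 142560026 to 142573209) had 2.69, 3.29 and 3.72 CPM in MRL/mpj and 18.7, 13.7 and 8.69 CPM in MRL/lpr libraries (log2 fold change 2.05). Tgtp2, another GTPase of this list, had 0.249, 0.469 and 0.492 CPM in MRL/mpj and 15.4, 8.21 and 4.64 CPM in MRL/lpr libraries (log2 fold change 4.40). Each rose in the same order of libraries as the T cell genes, with MRL/lpr replicate 1 highest and replicate 3 lowest. Irgm1, the most abundant member, had 6.02, 5.04 and 5.63 CPM in MRL/mpj and 45.2, 23.2 and 15.3 CPM in MRL/lpr libraries and did not pass (adjusted p = 0.0623 by limma voom with Benjamini-Hochberg). Many of these genes have close copies, so single values are uncertain. The number of calls was 0 without any 1 of the MRL/mpj libraries, 8 without MRL/lpr replicate 1, 5 without MRL/lpr replicate 2 and 13 without MRL/lpr replicate 3. Using the MSC-labelled libraries, 6 of 14 rose and the median was 1.52.

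The signalling chain upstream of these targets gave 3 calls. Of 16 signalling components Irf1, Irf9 and Socs1 rose, and the median was 0.42. Irf9, the DNA-binding part of the type I interferon complex, had 5.82, 9.22 and 6.02 CPM in MRL/mpj and 21.4, 17.1 and 14.5 CPM in MRL/lpr libraries. Irf1, which serves interferon-gamma, and Socs1, which shuts the pathway off, had log2 fold changes of 1.35 and 2.15. The receptor genes had log2 fold changes of 0.23 for Ifnar1, 0.41 for Ifnar2 and 0.02 for Ifngr1, none past the threshold. Of 16 tested nucleic acid sensors and their partners 1 rose, Mavs, the adaptor on mitochondria, with 0.68 (median 0.57). Irf9, Socs1 and Mavs lost the call without any 1 of the MRL/mpj libraries or MRL/lpr replicate 1, and Irf1 lost it without any 1 of the MRL/mpj libraries or MRL/lpr replicate 1 or 2, with an adjusted p of up to 0.162 there (limma voom with Benjamini-Hochberg).

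Antigen presentation has 2 arms, and genes of both were positive with few calls. For class I, 4 of 15 genes of the immunoproteasome and peptide loading rose, all 15 were positive and the median was 0.83. B2m (ENSMUSG00000060802, chromosome 2, 122147686 to 122153083), the light chain of every class I molecule, had 69.3, 56.4 and 64.2 CPM in MRL/mpj and 402, 208 and 177 CPM in MRL/lpr libraries, a log2 fold change of 1.96 (SE 0.30, adjusted p = 0.0176 by limma voom with Benjamini-Hochberg). Erap1, which trims peptides, had a log2 fold change of 0.83, and Tapbpl, a peptide editor, and Psme2, a proteasome activator, rose with log2 fold changes of 1.13 and 0.59. The constitutive proteasome had 0 of 34 subunits called by limma voom, 4 at an unadjusted p under 0.05 and a median of -0.11. For class II, Cd74 was the 1 of 11 that rose, all 11 were positive and the median was 1.95. Members nearly absent from MRL/mpj mice, such as H2-Aa, could pass the count filter only through the MRL/lpr libraries, so these values are partly set by it. In class II, 0 calls were left without any 1 of the MRL/mpj libraries or MRL/lpr replicate 1, and in class I, 0 were left without any 1 of the MRL/mpj libraries. Without MRL/lpr replicate 3 there were 9 calls in class II and 10 in class I. H2-Aa, a chain of the class II molecule, had 0.348, 0.213 and 0.219 CPM in MRL/mpj and 40.8, 31.5 and 9.67 CPM in MRL/lpr libraries and did not pass (adjusted p = 0.0776 by limma voom with Benjamini-Hochberg). B2m lost the call without any 1 of the MRL/mpj libraries, Erap1, Tapbpl and Cd74 lost it without any 1 of the MRL/mpj libraries or MRL/lpr replicate 1, and Psme2 lost it without any 1 of the MRL/mpj libraries or MRL/lpr replicate 1 or 2, with an adjusted p of up to 0.159 there (limma voom with Benjamini-Hochberg). From the MSC-labelled libraries, the medians were 0.33 for class I and 0.90 for class II, the latter over 9 genes in place of 11.

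With all 6 libraries, other inflammatory lists gave at most 2 calls each. Without MRL/lpr replicate 3 there were 6 calls each among chemokines, NF-kappaB targets and genes of leukocyte adhesion. In that fit reactive astrocyte genes had 10, complement genes 5 and chemokine receptors 4. Of 19 tested chemokines Ccl8 rose (median 1.14), and of 14 tested chemokine receptors Ccr1, with 3.20 (median 0.67). Of 12 tested NF-kappaB targets Traf1 rose and Nfkbiz fell, with log2 fold changes of 2.74 and -0.82 (median 0.58). All 19 tested complement genes were positive with a median of 0.64, but limma voom called 0 and 4 had an unadjusted p under 0.05. Among 11 tested genes of the interleukin-6 family and the acute phase limma voom called 0 and 3 had an unadjusted p under 0.05 (median 0.33). Of 25 genes of reactive astrocytes S100a10, a calcium-binding protein, rose along with the class I gene H2-T23, with log2 fold changes of 1.15 and 3.95 (median 0.60). Of 14 tested genes of leukocyte adhesion Cd34 fell, with -0.76 (median 0.31). Traf1, S100a10, H2-T23 and Cd34 lost the call without any 1 of the MRL/mpj libraries, and Ccr1 and Nfkbiz lost it without any 1 of the MRL/mpj libraries or MRL/lpr replicate 1, with an adjusted p of up to 0.160 there (limma voom with Benjamini-Hochberg).

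The promoters of the lists that moved together were searched for the letters of known response elements. Sequences of 300 bases, from 250 before to 50 after the start of each gene, were taken from RefSeq for GRCm38.p6. The core of the interferon-stimulated response element, GAAA followed after any 2 bases by GAAA on either strand, was present in 10 of 11 GTPase genes with a promoter in the table (90.9%), 9 of 17 antiviral genes (52.9%), 3 of 12 class I genes (25.0%) and 1 of 9 class II genes (11.1%), against 3.99% of 27025 genes. The gamma-activated site, TTCNNNGAA, was present in 6 of 11 GTPase genes (54.5%), 3 of 17 antiviral (17.6%), 1 of 12 class I (8.33%) and 1 of 9 class II genes (11.1%), against 9.55% of all genes. Lists chosen for other pathways held it too, with 2 of 9 E-box clock genes (22.2%) and 3 of 15 glucocorticoid-induced genes. A match describes the letters in this window and says nothing of use in this tissue. The promoters of Ifit1 (chr19:34640639-34640938, plus strand), B2m (chr2:122147437-122147736, plus strand) and Gbp3 (chr3:142559794-142560093, plus strand) are shown because these genes rose and stand for the antiviral, class I and GTPase lists. Capitals mark matches to the interferon-stimulated core that do not overlap. In Gbp3 a further match overlaps the end of the marked one and is left partly in lower case.
Ifit1: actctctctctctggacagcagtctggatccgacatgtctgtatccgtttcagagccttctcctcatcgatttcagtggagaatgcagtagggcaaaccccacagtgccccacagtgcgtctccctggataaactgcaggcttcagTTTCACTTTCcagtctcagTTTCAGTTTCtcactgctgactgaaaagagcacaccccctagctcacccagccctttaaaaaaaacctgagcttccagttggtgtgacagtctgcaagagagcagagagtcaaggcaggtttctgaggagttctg
B2m: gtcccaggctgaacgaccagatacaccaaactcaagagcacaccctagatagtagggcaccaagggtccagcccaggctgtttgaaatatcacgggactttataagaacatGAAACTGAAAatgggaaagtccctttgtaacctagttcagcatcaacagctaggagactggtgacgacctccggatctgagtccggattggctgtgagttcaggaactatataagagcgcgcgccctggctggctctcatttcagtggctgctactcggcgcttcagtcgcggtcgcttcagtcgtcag
Gbp3: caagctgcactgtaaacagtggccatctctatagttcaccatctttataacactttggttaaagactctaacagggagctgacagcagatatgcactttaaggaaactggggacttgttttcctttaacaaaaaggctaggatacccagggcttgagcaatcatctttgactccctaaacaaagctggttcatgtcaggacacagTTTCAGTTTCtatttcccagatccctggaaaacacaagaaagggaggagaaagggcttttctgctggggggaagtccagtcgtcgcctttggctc

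**Figure D4:**
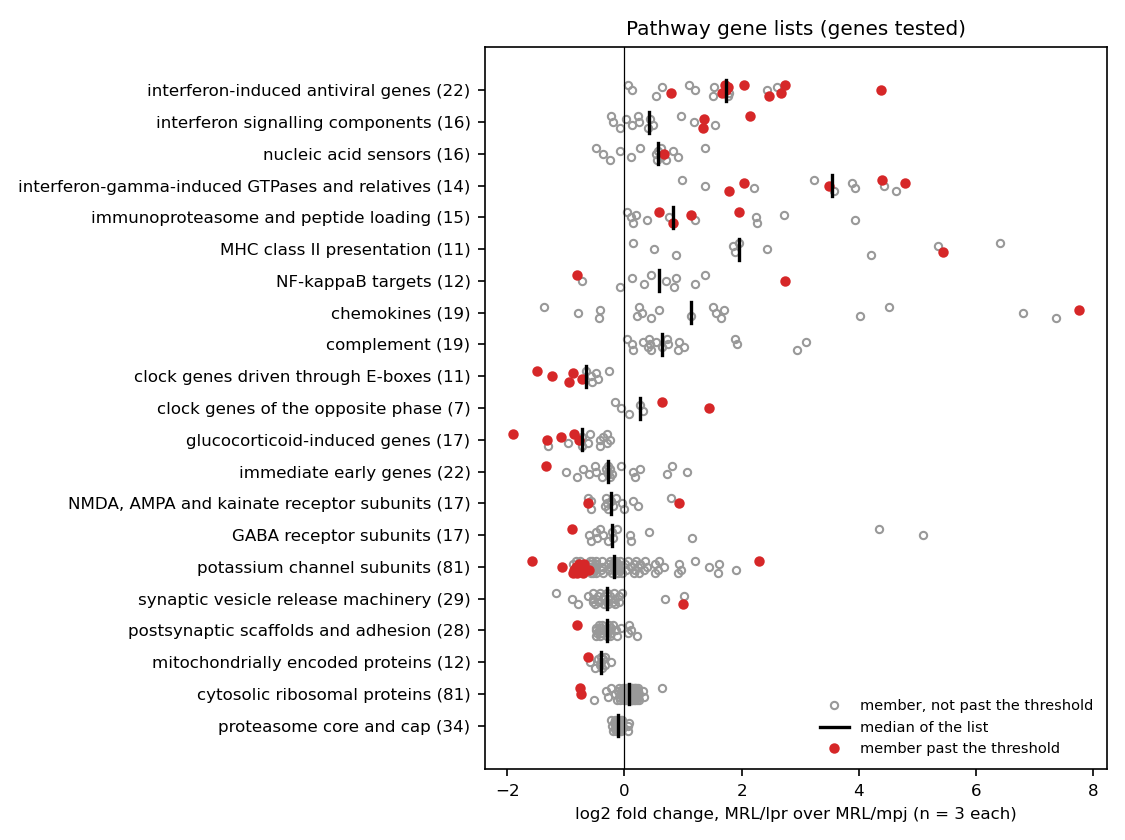
Log2 fold change of MRL/lpr over MRL/mpj (n = 3 each) for each tested member of 21 pathway lists, with red points past the threshold, open points not past it, and a bar at the median. Interferon and antigen presentation lists lie to the right (medians up to 3.54), clock and glucocorticoid lists to the left (-0.65 and -0.73), and synaptic lists slightly left of 0.

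The circadian clock is a loop in which CLOCK and BMAL1 drive genes through E-box elements and the products of those genes shut the drive off. All 11 genes driven through E-boxes were negative, with a median of -0.65, and 5 fell, against 2.38% of all genes. Dbp (ENSMUSG00000059824, chromosome 7, 45705088 to 45710203), an output factor of the clock, had 44.8, 47.2 and 45.8 CPM in MRL/mpj and 19.3, 19.1 and 20.2 CPM in MRL/lpr libraries, a log2 fold change of -1.23 (SE 0.07, adjusted p = 6.42e-04 by limma voom with Benjamini-Hochberg). Bhlhe40, a repressor in the loop, had 117, 121 and 122 CPM in MRL/mpj and 60.2, 60.6 and 65.6 CPM in MRL/lpr libraries (log2 fold change -0.95). Ciart (ENSMUSG00000038550, chromosome 3, 95878503 to 95882251), another repressor, had 16.2, 11.2 and 13.6 CPM in MRL/mpj and 4.08, 4.89 and 5.41 CPM in MRL/lpr libraries (log2 fold change -1.50). In all 3 the groups lay wide apart. Hlf, a relative of Dbp, had a log2 fold change of -0.87, and Nr1d1 fell with a log2 fold change of -0.72. The period genes had -0.65 for Per1, -0.56 for Per2 and -0.48 for Per3, none past the threshold. Among 7 genes of the opposite phase 2 rose, among them Nfil3 with 0.63, and Arntl, which encodes BMAL1, had 0.32 (median 0.26). Dbp, Bhlhe40 and Hlf kept the call with any 1 library left out, Ciart lost it without MRL/mpj replicate 3, Nr1d1 lost it without MRL/mpj replicate 2 or 3 or MRL/lpr replicate 1, and Nfil3 lost it without any 1 of the MRL/mpj libraries or MRL/lpr replicate 1 or 2, with an adjusted p of up to 0.128 there (limma voom with Benjamini-Hochberg). For the MSC-labelled libraries 4 of the 11 fell and the median was -0.57. The time of day at which the mice were killed is not given for the libraries, so group and time cannot be told apart.

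The E-box letters CACGTG were present in 4 of 9 clock genes with a promoter in the table (44.4%), against 8.09% of all 27025 genes. Other lists held them in 3 of 12 class I genes (25.0%), 1 of 6 clock genes of the opposite phase (16.7%) and 2 of 15 glucocorticoid-induced genes (13.3%). The promoter of Ciart (chr3:95882179-95882478, minus strand, RefSeq for GRCm38.p6) is shown because it holds 3 of them, in capitals, and because Ciart had the largest fall of the list.
Ciart: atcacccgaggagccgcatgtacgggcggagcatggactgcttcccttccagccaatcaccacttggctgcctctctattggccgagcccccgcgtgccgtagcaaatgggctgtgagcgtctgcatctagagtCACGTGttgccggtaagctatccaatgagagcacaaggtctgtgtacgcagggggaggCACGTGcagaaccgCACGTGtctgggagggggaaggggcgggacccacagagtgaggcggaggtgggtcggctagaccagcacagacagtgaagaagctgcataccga

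Glucocorticoids, the stress hormones of the adrenal gland, act on hippocampal neurons and glia through a receptor that switches on a known set of genes. All 17 genes of this set were negative, with a median of -0.73, and 5 fell. Tsc22d3 (ENSMUSG00000031431, chromosome X, 140539528 to 140600659), also known as Gilz, had 138, 95.7 and 128 CPM in MRL/mpj and 43.1, 40.4 and 62.5 CPM in MRL/lpr libraries, a log2 fold change of -1.32 (SE 0.20, adjusted p = 0.0173 by limma voom with Benjamini-Hochberg). Zbtb16 had 95.7, 102 and 113 CPM in MRL/mpj and 49.3, 56.0 and 42.1 CPM in MRL/lpr libraries (log2 fold change -1.08). Klf9, a transcription factor that thyroid hormone also induces, had a log2 fold change of -0.77. The groups did not overlap in any of these. Map3k6 and Errfi1 fell with log2 fold changes of -1.89 and -0.87. The kinase gene Sgk1 had 203, 132 and 228 CPM in MRL/mpj and 68.8, 112 and 52.6 CPM in MRL/lpr libraries and did not pass (adjusted p = 0.0532 by limma voom with Benjamini-Hochberg). Zbtb16 kept the call with any 1 library left out, Tsc22d3 and Map3k6 lost it without MRL/mpj replicate 1 or 3 or MRL/lpr replicate 1, Klf9 lost it without any 1 of the MRL/mpj libraries or MRL/lpr replicate 1, and Errfi1 lost it without MRL/mpj replicate 1 or 3 or MRL/lpr replicate 1 or 3, with an adjusted p of up to 0.123 there (limma voom with Benjamini-Hochberg). Against these controls, in the MSC-labelled libraries 7 of the 17 fell and the median was -0.78. Of the 22 immediate early genes, which neuronal activity induces within minutes, Nr4a2 alone fell and the median was -0.28. Of 17 tested genes of the thyroid hormone and retinoid axis 2 fell, Klf9 and Crym, which binds thyroid hormone in the cell (median 0.09). Crym had 96.9, 116 and 128 CPM in MRL/mpj and 35.3, 53.2 and 30.2 CPM in MRL/lpr libraries (log2 fold change -1.56), and 189, 50.6 and 36.4 CPM in the MSC-labelled libraries, the first of them above every other library. Nr4a2 kept the call with any 1 library left out, and Crym lost it without MRL/mpj replicate 2 or 3 or MRL/lpr replicate 1, with an adjusted p of up to 0.0643 there (limma voom with Benjamini-Hochberg).

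Most synaptic genes had small negative values that did not pass. Of 29 genes of vesicle release 26 were negative with a median of -0.30, 17 had an unadjusted p under 0.05 in limma voom, and none fell by the threshold. The 1 that was past it rose, Sv2c, a vesicle protein of subcortical neurons, with 1.00. Without MRL/lpr replicate 2 the vesicle release list had 9 calls. Of 28 postsynaptic scaffolds and adhesion molecules 24 were negative with a median of -0.30 and 1 fell, Dlgap1, which links scaffold proteins under the receptor. Dlgap1 had 905, 930.1 and 936 CPM in MRL/mpj and 512, 614 and 467 CPM in MRL/lpr libraries, a log2 fold change of -0.81 (SE 0.11, adjusted p = 0.0122 by limma voom with Benjamini-Hochberg). Dlgap1 lost the call without any 1 of the MRL/mpj libraries, and Sv2c lost it without any 1 of the MRL/mpj libraries or MRL/lpr replicate 1 or 2, with an adjusted p of up to 0.150 there (limma voom with Benjamini-Hochberg). Of 26 regulators of actin and dendritic spines 22 were negative (median -0.23), with 0 called by limma voom and 15 at an unadjusted p under 0.05. In the MSC-labelled libraries the medians were -0.16, -0.18 and -0.17 for these 3 lists.

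The number of calls among transmitter receptors depended on the libraries used. Of 17 tested subunits of NMDA, AMPA and kainate receptors Grin1 fell and Grik3, a kainate receptor subunit, rose (median -0.23). Of these 17, 13 were negative and 8 had an unadjusted p under 0.05 in limma voom. Without MRL/lpr replicate 2 this list had 5 calls, GABA receptor subunits 6, metabotropic glutamate receptors 2, and receptors for monoamines and acetylcholine 14. Without MRL/mpj replicate 2 or 3 each of them had 0. Grik3 had a log2 fold change of 0.93. Of 17 tested GABA receptor subunits 1 fell, Gabra5, the subunit that gives the hippocampus its tonic inhibition, with a log2 fold change of -0.89 (median of the list -0.21). In this list 11 were negative and 10 had an unadjusted p under 0.05 in limma voom. Of 10 tested metabotropic glutamate receptors limma voom called 0 and 2 had an unadjusted p under 0.05 (median -0.14). Among 41 tested receptors for monoamines and acetylcholine 2 rose and 4 fell (median -0.07). Htr2c (ENSMUSG00000041380, chromosome X, 146962513 to 147197277), a serotonin receptor, had 6.47, 8.15 and 10.9 CPM in MRL/mpj and 43.0, 82.3 and 93.1 CPM in MRL/lpr libraries, a log2 fold change of 3.06 (SE 0.46, adjusted p = 0.0176 by limma voom with Benjamini-Hochberg). The rise was present in all 3 MRL/lpr libraries and in those labelled MRL/lpr+MSC, which had 33.04, 72.9 and 70.5 CPM. Adra2b, an adrenergic receptor, rose with a log2 fold change of 4.35, and Chrna5, Htr2a, Chrm3 and Drd5 fell, Chrna5 from 7.92 ± 0.728 to 2.84 ± 1.02 CPM (SD, n = 3 each). Grin1 lost the call without MRL/mpj replicate 2 or 3 or MRL/lpr replicate 1, Htr2c lost it without any 1 of the MRL/mpj libraries, Grik3, Gabra5, Adra2b, Chrna5 and Chrm3 lost it without any 1 of the MRL/mpj libraries or MRL/lpr replicate 1, and Htr2a and Drd5 lost it without any 1 of the MRL/mpj libraries or MRL/lpr replicate 1 or 3, with an adjusted p of up to 0.165 there (limma voom with Benjamini-Hochberg).

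Potassium channels held the largest number of falls of any list. Of 81 tested subunits 12 fell, against 2.38% of all genes, 1 rose, and the median was -0.17. Kcnn2, a calcium-activated channel of dendrites, had 50.9, 57.5 and 58.7 CPM in MRL/mpj and 28.0, 23.7 and 27.9 CPM in MRL/lpr libraries, a log2 fold change of -1.07 (SE 0.09, adjusted p = 0.00294 by limma voom with Benjamini-Hochberg). Kcnh7, a channel of the ether-a-go-go family, had 74.9, 103 and 90.0 CPM in MRL/mpj and 33.4, 19.2 and 39.2 CPM in MRL/lpr libraries (log2 fold change -1.58), and its relative Kcnh3 had a log2 fold change of -0.86. Kcnab2, an auxiliary subunit and the most abundant of the list, had a log2 fold change of -0.82. All 4 were lower in each MRL/lpr library than in each control. The others that fell were Kcnab3, Kcnq5, Kcns3, Kcnd2, Kcnb2, Kcnc2, Kcnip4 and Kcnj3. The 1 that rose, Kcnn4, serves lymphocytes and other non-neuronal cells (log2 fold change 2.29). The number of calls was 2 without any 1 of the MRL/mpj libraries or MRL/lpr replicate 1, 28 without MRL/lpr replicate 2 and 12 without MRL/lpr replicate 3. Using the MSC-labelled libraries, 4 of 80 fell, 2 rose and the median was -0.12. The other channel families had 1 call each, namely Scn4b among 16 sodium and HCN subunits, Cacng3 among 23 calcium channel subunits, both lower, and the chloride transporter Slc12a7, higher, among 14 genes of chloride transport and acid sensing (medians -0.12, -0.26 and -0.07). Without MRL/lpr replicate 2 the sodium and HCN list had 5 calls, the calcium list 8 and the chloride list 3. Kcnn2 kept the call with any 1 library left out, Scn4b lost it without MRL/mpj replicate 2 or 3, Cacng3 lost it without MRL/mpj replicate 1 or 3 or MRL/lpr replicate 1, and Kcnh7, Kcnh3, Kcnab2, Kcnn4 and Slc12a7 lost it without any 1 of the MRL/mpj libraries or MRL/lpr replicate 1, with an adjusted p of up to 0.163 there (limma voom with Benjamini-Hochberg).

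Genes of wiring and matrix changed in both directions. Of 52 tested clustered protocadherins, which give each neuron a surface code, 3 rose and 6 fell (median -0.16). The number of calls was 2 without MRL/mpj replicate 1 or 2 or MRL/lpr replicate 1, and 1 without MRL/mpj replicate 3. It was 11 without MRL/lpr replicate 2 and 8 without MRL/lpr replicate 3. Pcdhga5 had 2.44, 2.60 and 2.02 CPM in MRL/mpj and 7.24, 6.68 and 7.07 CPM in MRL/lpr libraries (log2 fold change 1.56). Pcdhga9, from the same gene cluster, had 13.3, 11.8 and 12.1 CPM in MRL/mpj and 6.99, 5.87 and 6.26 CPM in MRL/lpr libraries (log2 fold change -0.95). Neighbouring members of one cluster thus moved in opposite directions, and their similar sequences make the counts uncertain. The MSC-labelled libraries gave 1.69 and -1.13 for them. Of 69 axon guidance genes 3 rose and 4 fell (median 0.05). Sema3f, a repellent for hippocampal axons, had 2.19, 2.18 and 1.86 CPM in MRL/mpj and 8.36, 14.5 and 11.8 CPM in MRL/lpr libraries, a log2 fold change of 2.40 (SE 0.34, adjusted p = 0.0123 by limma voom with Benjamini-Hochberg). Of 17 tested genes of the perineuronal net and brain matrix Hapln1 fell and Timp2 rose, with -0.69 and 1.26 (median -0.28). Of 20 basement membrane and collagen genes Col5a2 rose, with 1.01 (median 0.45). Of 40 tested genes of Wnt and BMP signalling 4 rose and 1 fell (median 0.36). The Wnt receptor gene Fzd7 had 11.9, 12.9 and 11.5 CPM in MRL/mpj and 27.2, 28.8 and 24.9 CPM in MRL/lpr libraries, a log2 fold change of 1.14 (SE 0.11, adjusted p = 0.00370 by limma voom with Benjamini-Hochberg). Fzd10, Bmp2 and the pathway target Axin2 rose too, and the ligand gene Wnt2 fell, with -1.24. Pcdhga5 and Fzd7 kept the call with any 1 library left out, Pcdhga9 lost it without MRL/mpj replicate 3, Sema3f, Hapln1, Fzd10 and Wnt2 lost it without any 1 of the MRL/mpj libraries, Axin2 lost it without MRL/mpj replicate 1 or 3 or MRL/lpr replicate 1, Timp2 and Col5a2 lost it without any 1 of the MRL/mpj libraries or MRL/lpr replicate 1, and Bmp2 lost it without any 1 of the MRL/mpj libraries or MRL/lpr replicate 1 or 3, with an adjusted p of up to 0.161 there (limma voom with Benjamini-Hochberg). Of 15 tested neurotrophic factors and receptors limma voom called 0 and 8 had an unadjusted p under 0.05 (median 0.36), with Bdnf at a log2 fold change of -0.50.

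Lists of energy and protein metabolism gave few calls. All 12 tested mitochondrially encoded proteins were negative, with a median of -0.40, and mt-Nd1, a subunit of complex I, fell from 6809 ± 1068 to 4389 ± 387 CPM (SD, n = 3 each). Subunits of the same complexes from nuclear genes had a median of -0.06, with 1 of 81 lower, Cox6a2. mt-Nd1 and Cox6a2 lost the call without any 1 of the MRL/mpj libraries or MRL/lpr replicate 1, with an adjusted p of up to 0.130 there (limma voom with Benjamini-Hochberg). Of 18 glycolytic genes 17 were negative (median -0.20), with 0 called by limma voom and 7 at an unadjusted p under 0.05. Of 20 genes of cholesterol synthesis limma voom called 0 and 3 had an unadjusted p under 0.05 (median 0.08). Of 21 genes of fatty acid synthesis and oxidation Acadl and Cpt2, enzymes of oxidation in mitochondria, rose (median 0.23). Of 81 tested ribosomal proteins Rpl14 and Rps2 fell, and the median was 0.08.

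Stress and death pathways likewise gave few calls. Of 20 tested p53 targets and death genes 2 rose, among them the survival gene Bcl2 (median 0.16). The log2 fold change of Bcl2 was 0.86. Of 18 genes of the oxidative stress response Gpx3, a secreted peroxidase, rose with 8.41, 4.95 and 7.71 CPM in MRL/mpj and 30.8, 31.9 and 81.9 CPM in MRL/lpr libraries, the highest in MRL/lpr replicate 3 (median of the list 0.11). Of 13 heat shock genes Hspa1b fell (median 0.00). Of 30 tested genes of lysosomes and phagocytosis the oxidase subunit gene Cyba rose and the receptor gene Mertk, through which dead cells are cleared, fell (median 0.27). Acadl lost the call without MRL/mpj replicate 2 or 3, Cpt2, Bcl2, Gpx3 and Cyba lost it without any 1 of the MRL/mpj libraries or MRL/lpr replicate 1, Hspa1b lost it without MRL/mpj replicate 1 or 3 or MRL/lpr replicate 1, 2 or 3, and Mertk lost it without any 1 of the MRL/mpj libraries or MRL/lpr replicate 1 or 2, with an adjusted p of up to 0.167 there (limma voom with Benjamini-Hochberg). By limma voom 0 genes were called in the unfolded protein response (17 genes, 4 with an unadjusted p under 0.05, median 0.16), in autophagy and mTOR (20 genes, 3, -0.09), among splicing factors (28 genes, 10, 0.00) and among chromatin readers and writers (23 genes, 3, 0.03). Of 61 tested genes of microtubules and motors 3 rose and 3 fell (median -0.04), with the mitotic motors Kif11 and Kif23 among those that rose. Of 351 tested zinc finger genes, picked by their Zfp symbols, 5 rose and 8 fell (median 0.07). Zfp429 changed most, with -4.85, and kept its call with any 1 library left out, whereas Kif11 and Kif23 lost the call without any 1 of the MRL/mpj libraries or MRL/lpr replicate 1, with an adjusted p of up to 0.141 there (limma voom with Benjamini-Hochberg).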

How the data were processed

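The authors describe libraries made from poly-A RNA, alignment with STAR to GRCm38 and counting per gene with HTSeq. The processing notes of the submitters name TopHat2 in place of STAR, and the amount of input RNA also differs between these accounts. The deposited FPKM values were computed by the authors from counts, gene length and library size, and the deposited counts are whole reads per gene. Whether strand was used in counting is not stated, so genes that overlap on opposite strands may share reads.

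Counts were scaled by TMM and fitted by limma voom with robust moderation and Benjamini-Hochberg adjustment over 16697 genes, in R 4.3.3 with limma 3.58.1 and statmod 1.5.0. Genes needed the CPM that equals 10 counts in a library of median size in at least 3 libraries. A gene nearly absent from either group can pass through the other group alone, so its direction is partly set by this filter. Tables and figures were made in Python 3.11.15 with pandas 2.3.3, numpy 2.4.6, scipy 1.17.1 and matplotlib 3.10.9. Named single genes are from the 12 protein-coding and 4 other genes that changed most in each direction without overlap at a mean of at least 1 CPM, and the 10 protein-coding genes with the smallest p at a mean of at least 20 CPM. From each list the members past the threshold with the largest changes are named, and other members and genes were picked after their values were seen. Gene lists and their members were chosen with earlier results of these data known. The fit was repeated under 8 alternatives that keep 6 libraries and with each of the 6 libraries left out.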

Additional observations from a re-analysis of the deposited data

How the results depend on the processing

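The number of genes past the threshold depended strongly on the alternative. The main fit gave 967 genes, a test against a 1.5-fold change gave 104, and library quality weights gave 2065. The MSC-labelled libraries in place of MRL/lpr, in a fit over 16196 genes, gave 556. Leaving out a library gave 179 to 1631. The cause was not tested. Genes higher in MRL/lpr went from 569 to 916 by limma-trend, 53 by the test against 1.5-fold, 1507 with quality weights and 313 with the MSC-labelled libraries, and ranged from 70 to 1025 with a library left out. Genes lower went from 398 to 51 by the test against 1.5-fold and to 243 with the MSC-labelled libraries, and ranged from 109 to 613.

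Among 80 lists 57 held a gene past the threshold, against 4 by the test against 1.5-fold, 36 with the MSC-labelled libraries, and 12 to 64 with a library left out. Of 427 genes looked at by name or list, 167 differed, against 30 and 76 in these alternatives and 44 to 155 with a library left out. The list medians depended most on the labels. With the MSC-labelled libraries 45 of 80 moved, against at most 12 with any 1 library left out, and some changed sign. Meningeal fibroblasts went from 0.48 to -0.46 and perivascular macrophages from 0.16 to -0.36. NF-kappaB targets went from 0.58 to -0.02, with 11 of 12 genes tested there. T cells went from 4.31 to -0.08, chemokines from 1.14 to -0.21, and neutrophils and monocytes from 1.18 to -0.31. These medians cover unlike genes, as only 2 of 14, 13 of 19 and 3 of 7 were tested there. Over all members tested in the main fit, the MSC-labelled libraries had median log2 deviations from the MRL/mpj mean of 0.20, 0.24 and 0.44 for T cells. They were -0.08, 0.22 and 0.40 for chemokines, and -0.67, 1.07 and -0.002 for neutrophils and monocytes. The cause was not tested. With windows of 10 Mb the highest share of changed genes was 35.7% in place of 34.8%.

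Adding a replicate block to the model gave 1127 genes, with 781 higher and 346 lower. The labels do not say that replicates of the same number belong together.

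Fas changed sign with library quality weights, to 0.10, and ranged from -0.24 to 0.15 with a library left out. With the MSC-labelled libraries it was -0.51, the largest move of all, and it was never past the threshold. Clec10a changed sign with the MSC-labelled libraries, to -0.16, and the cause was not tested.

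With 3 mice per group, a difference that missed the threshold is not shown to be absent. Bulk counts carry no information on which cell a transcript came from, and genes at a few counts rest on little. The group names rest on the labels as deposited, with which an expression table and the strain entry disagree.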
